A study of Homo sapiens with 18 samples.

Results

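HAP1 cells transcribed 10 genes that carry bone morphogenetic protein (BMP), activin and nodal signals into the cell, and these 10 genes are described here across 6 groups of cells with and without the cohesin regulators WAPL and SCC4. They comprise the BMP ligands *BMP2*, *BMP4* and *BMP7*, the type I receptors *BMPR1A*, *ACVR1*, *ACVR1B* and *ACVR1C*, and the type II receptors *BMPR2*, *ACVR2A* and *ACVR2B*, out of 20329 gene identifiers in the deposited tables. All 10 were found by their Ensembl identifiers and all 10 passed the filter on low counts in each comparison. The list was drawn up, and *BMP7* and *ACVR1C* were singled out, with their measured levels in these samples known. The 2 genes chosen by those values are therefore described without a test, and the other 8 are tested.

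BMPs, activins, nodal and the TGF-β proteins are secreted dimers that bind a complex of type I and type II receptor kinases on the cell surface. The type II receptor phosphorylates the type I receptor, which phosphorylates SMAD transcription factors. BMP receptors act mainly through SMAD1, SMAD5 and SMAD9, and activin, nodal and TGF-β receptors mainly through SMAD2 and SMAD3. Antagonists such as noggin and chordin bind BMPs outside the cell, and the *ID* genes are classic early targets of BMP signaling. The family sets body axes and germ layers in the embryo and guides the formation of bone, nerve and kidney.

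The study examined how WAPL, which releases the ring-shaped cohesin complex from chromatin, and SCC4, a partner of the cohesin loader, shape chromosome loops, and poly(A) RNA-seq of HAP1 cells, a near-haploid human line derived from a chronic myeloid leukemia, was part of it. There were 18 samples, 3 in each of 6 groups. Control A and control B were unedited HAP1 cells. *ΔWAPL* clones 3.3 and 1.14 and the *ΔSCC4* cells were made from HAP1 by CRISPR, with a blasticidin cassette put into *WAPL* or a puromycin cassette into *SCC4*. The *ΔWAPL*/*ΔSCC4* cells came from *ΔWAPL* cells of clone 3.3 in which *SCC4* was then disrupted, so they descend from that clone. Each edited group thus stands for single clones. The clone and the genotype cannot be told apart within a comparison. In such bulk samples, fewer cells with a transcript and less transcript per cell cannot be told apart either. Clone 3.3, *ΔSCC4* and *ΔWAPL*/*ΔSCC4* were compared with control A and clone 1.14 with control B, by the run number that the deposited tables carry, since the labels of the knockouts give no set. Comparisons with control A share the same 3 control samples. The labels do not say that the samples of a group came from separate cultures, so p-values measure only the spread between samples, which may be technical.

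Counts on genes ranged from 10007646 to 20711127 per sample. Levels are given as CPM, counts scaled to a common library size by trimmed-mean normalization over the 18 samples, with the SD over 3 samples. *MAU2*, the gene that encodes SCC4, averaged 65.6 ± 6.25 CPM in control A, 0.70 ± 0.24 in *ΔSCC4* and 0.93 ± 0.10 in *ΔWAPL*/*ΔSCC4* cells. *WAPL* averaged 99.2 ± 21.6 CPM in control A, 43.7 ± 5.65 in clone 3.3, 45.5 ± 3.95 in the double knockout, 120.6 ± 14.6 in control B and 41.3 ± 2.89 in clone 1.14. The blood markers *PTPRC*, *SPI1*, *CD34*, *GATA1* and *ITGB2* stayed at group means of at most 0.08 CPM. The origin of the line in a leukemia was thus not visible in them. In control A the mesenchymal marker *VIM* averaged 586.5 CPM and the keratin *KRT18* 61.9 CPM. These are 1 of 3 mesenchymal and 1 of 4 epithelial markers listed, and the others are not given here. Control A replicate 1 had the lowest and replicate 3 the highest level of *WAPL*, *BMPR1A*, *BMPR2*, *ACVR2A* and *ACVR2B* among the control A samples, and the *ΔSCC4* samples showed the same order for all 5. Results that rest on these libraries are given with and without them.

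Per kilobase of exon, the control A cells held most *ACVR1B* RNA among the 10 genes, at 10.9 CPM per kb, followed by *BMPR1A* at 6.10, *BMPR2* at 5.45, *ACVR2A* at 5.15 and *ACVR2B* at 4.01 CPM per kb. The ligands were lower, with *BMP4* at 3.01, *BMP7* at 2.47 and *BMP2* at 2.09 CPM per kb. *ACVR1* stood at 1.68 and *ACVR1C* at 0.081 CPM per kb, the lowest of the 10. In clone 3.3 the order changed at its top, where *BMP7* led at 13.0 CPM per kb, above *ACVR1B* at 9.36 CPM per kb. In *ΔSCC4* cells *BMP7* was near the bottom at 0.17 CPM per kb. The group means of *BMP7* spanned a ratio of 119.11 between the highest and the lowest group and those of *ACVR1C* a ratio of 17.66. Among the other 8 genes this ratio lay between 1.19 for *BMPR1A* and 2.30 for *ACVR2A*. The plot of levels by sample shows these contrasts.

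**Figure D1:**
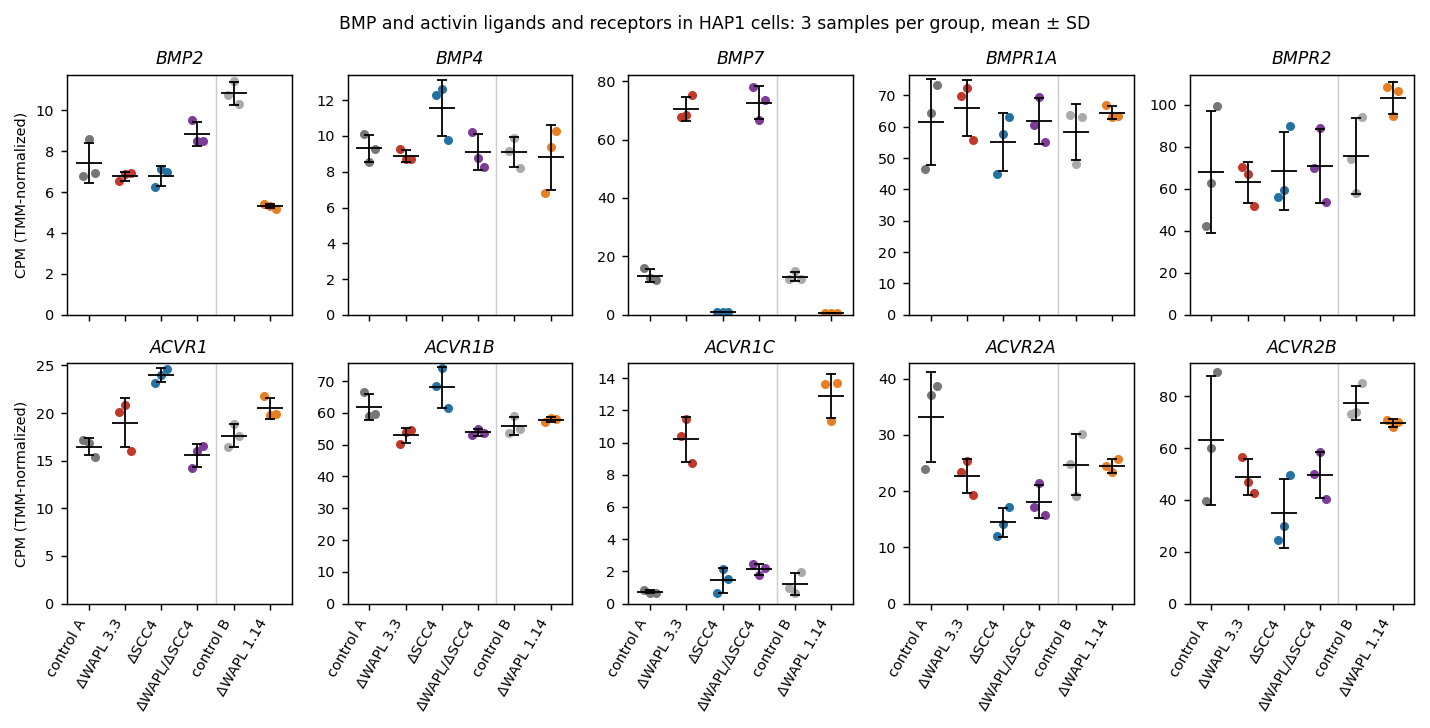
Normalized CPM (vertical axes, from 0) of the 10 genes in each of 18 samples, in 6 groups along the horizontal axes, with the line and bars giving mean ± SD of 3 samples. *BMP7* is near 70 CPM in clone 3.3 and the double knockout and near 1 or below in *ΔSCC4* and clone 1.14, and *ACVR1C* is near 10 CPM or above in both *ΔWAPL* clones, above the other 4 groups.

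*BMP7* encodes a BMP of kidney, eye and skeletal development and lies on chr20:55743809-55841697 (GRCh37, minus strand). Its level was 15.9, 12.5 and 11.9 CPM in the 3 control A samples and 12.2, 14.9 and 12.2 CPM in the control B samples. In clone 3.3 it was 67.8, 68.4 and 75.2 CPM, and in the double knockout made from that clone 77.9, 66.6 and 73.5 CPM. In *ΔSCC4* it was 1.04, 0.81 and 0.90 CPM, and in clone 1.14 it was 0.53, 0.77 and 0.54 CPM. The 2 controls overlapped, the 2 groups with the clone 3.3 background overlapped far above them, and *ΔSCC4* and clone 1.14 lay far below them. The ranges of *ΔSCC4* and clone 1.14 lay just apart, on counts of 8 to 16 and 9 to 13 reads per sample.

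The fitted log2 fold change of *BMP7* was 2.37 ± 0.17 (SE) in clone 3.3, a 5.18-fold higher level than in control A. In clone 1.14 it was −4.41 ± 0.18 against control B. Both clones carry a disrupted *WAPL*, and the difference between their effects was 6.79 ± 0.24 on the log2 scale. In *ΔSCC4* the value was −3.85 ± 0.23 against control A, and in the double knockout it was 2.43 ± 0.15. Against its parent clone 3.3, the double knockout had a log2 fold change of 0.05 ± 0.12, and against *ΔSCC4* one of 6.27 ± 0.19. Disruption of *SCC4* came with little *BMP7* RNA in cells with an intact *WAPL* and with the level of the parent in clone 3.3 cells. Leaving out any 1 sample moved the clone 3.3 value between 2.30 and 2.52 and the clone 1.14 value between −4.58 and −4.30. Control B and control A differed by −0.05 ± 0.17.

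*ACVR1C* encodes ALK7, a type I receptor of nodal and several activins and growth differentiation factors, and lies on chr2:158383279-158485376 (GRCh37, minus strand). It was at 0.85, 0.68 and 0.66 CPM in control A and at 0.96, 0.67 and 1.97 CPM in control B. In clone 3.3 it was at 10.4, 11.5 and 8.71 CPM and in clone 1.14 at 13.6, 11.3 and 13.7 CPM. In *ΔSCC4* it was at 0.65, 2.14 and 1.52 CPM and in the double knockout at 2.45, 1.78 and 2.21 CPM. Both *ΔWAPL* clones stood above all other groups and overlapped each other. The double knockout overlapped *ΔSCC4*, *ΔSCC4* overlapped control B, and control B overlapped control A. The control values rest on few reads, 10 to 35 per sample, against 131 to 257 in the *ΔWAPL* clones.

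The fitted log2 fold change of *ACVR1C* was 3.78 ± 0.23 in clone 3.3, a 13.75-fold higher level, and 3.37 ± 0.27 in clone 1.14, a 10.31-fold higher level. The 2 effects differed by 0.43 ± 0.41. The clone 1.14 value was 3.96 without control B replicate 3, the sample with 35 reads, and 3.09 without control B replicate 2. In *ΔSCC4* the log2 fold change was 0.89 ± 0.41 and in the double knockout 1.56 ± 0.25 against control A. Against clone 3.3 the double knockout was lower, with a log2 fold change of −2.24 ± 0.18, or 4.72-fold. The gene that was high in both *ΔWAPL* clones was thus lower, and nearer the control level, where *SCC4* was also disrupted, whereas *BMP7* in the same cells stood at the level of clone 3.3. Against *ΔSCC4* the double knockout value was 0.66 ± 0.31, and it was 0.27 without *ΔSCC4* replicate 1 and 0.99 without replicate 2. Control B and control A differed by 0.75 ± 0.41, and by 0.16 without control B replicate 3.

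The 250 bases before the start site of *ACVR1C* and of its chromosomal neighbor *ACVR1*, another type I receptor gene, are shown because only the first of these genes was high in both *ΔWAPL* clones. The end of *ACVR1C* and the start of *ACVR1* lie 107.4 kb apart in GRCh37. Sequences are from RefSeq (GRCh38.p14, minus strand, chr2:157628865-157629114 and chr2:157876331-157876580), where 8 of the 10 genes had an entry and *BMP2* and *BMP7* had none. Capitals mark AGGGGGC on either strand, letters found at the core of many CTCF sites.
ACVR1C: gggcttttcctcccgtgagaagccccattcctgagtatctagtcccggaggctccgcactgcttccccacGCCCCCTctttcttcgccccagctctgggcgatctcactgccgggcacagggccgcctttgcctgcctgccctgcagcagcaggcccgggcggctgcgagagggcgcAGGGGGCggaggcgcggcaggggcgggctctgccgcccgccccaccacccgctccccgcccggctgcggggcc
ACVR1: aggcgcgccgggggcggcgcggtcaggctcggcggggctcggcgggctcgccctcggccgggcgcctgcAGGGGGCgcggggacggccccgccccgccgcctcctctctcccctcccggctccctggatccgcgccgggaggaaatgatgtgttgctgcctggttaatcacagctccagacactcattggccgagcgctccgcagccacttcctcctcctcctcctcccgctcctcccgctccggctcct
The *ACVR1C* stretch held 74.4% G and C and the *ACVR1* stretch 75.2%, against a median of 58.0% over 35116 promoter windows of that length. AGGGGGC occurred 2 times and 1 time, respectively, and in 13.3% of all these windows. GGGCGG, the letters of a GC box, occurred 6 times and 2 times on either strand and in 42.6% of all windows. TATAAA was in neither, and in 10.7% of all windows. A second annotated start of *ACVR1C* had 42.4% G and C and none of the 3 motifs. These matches describe letters only, and binding was not measured in these files.

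*BMP2*, a ligand of bone and heart development on chr20:6748333-6760893 (plus strand), was the 1 gene of the 8 that passed the test in clone 1.14. Its level was 10.7, 11.4 and 10.3 CPM in control B and 5.41, 5.34 and 5.19 CPM in clone 1.14, so the groups did not overlap. It fell by 1.03 ± 0.09 on the log2 scale, which is 2.04-fold (edgeR quasi-likelihood test, Benjamini-Hochberg adjusted p = 0.000252). In this comparison 20.1% of all 12636 tested genes were called. Control A held 6.77, 8.57 and 6.91 CPM and clone 3.3 held 6.53, 6.86 and 6.91 CPM, which overlapped, with a log2 fold change of −0.15 ± 0.17 (edgeR adjusted p = 0.755). The difference between the effects of the 2 clones was 0.89 ± 0.17 on the log2 scale and passed the test (edgeR adjusted p = 0.00878), in a comparison where 2.65% of genes were called and *BMP2* was the 1 gene of the 8. Blocking on the replicate number, the difference did not pass (edgeR adjusted p = 0.0715). The labels do not say whether samples with the same number belong together. Deviations of such samples from their group means correlated at −0.515, −0.001 and −0.487 between clone 3.3 and control A. Between clone 1.14 and control B they correlated at 0.049, 0.319 and 0.196. The 2 controls themselves lay apart for *BMP2*, with a log2 fold change of 0.53 ± 0.15 for control B against control A. It did not pass in the fit of the 2 controls alone (edgeR adjusted p = 0.182). With 1 fit over all 18 samples it passed, at 0.543 ± 0.108 (edgeR adjusted p = 0.00859). The clone difference contains this gap between the controls. *ΔSCC4* at 6.24, 7.13 and 6.98 CPM and the double knockout at 9.50, 8.48 and 8.48 CPM did not pass against control A.

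*BMP4*, a ligand of mesoderm and limb formation on chr14:54416454-54425479 (minus strand), was among the steadiest of the 10 genes. Its group means ranged from 8.81 ± 1.81 CPM in clone 1.14 to 11.6 ± 1.57 CPM in *ΔSCC4*, and all 5 pairs of groups next to each other in the order of means overlapped. It passed in none of the comparisons by edgeR or DESeq2 with all samples, and without *ΔSCC4* replicate 3 it passed in the double knockout against *ΔSCC4*, at −0.455 ± 0.18 (edgeR adjusted p = 0.0285). In *ΔSCC4* its log2 fold change was 0.29 ± 0.16 (edgeR adjusted p = 0.324).

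Among the type I receptors, *ACVR1*, which encodes the BMP receptor ALK2 and lies on chr2:158592763-158732842 (minus strand), was higher in *ΔSCC4* cells. It was at 17.1, 16.9 and 15.4 CPM in control A and at 23.2, 24.0 and 24.7 CPM in *ΔSCC4*, with no overlap. The log2 fold change was 0.53 ± 0.14 (edgeR adjusted p = 0.0342). The call held without control A replicate 1 and was lost in the other 5 fits that left out 1 sample: the adjusted p was 0.151 without control A replicate 2, 0.13 without control A replicate 3, 0.0725 without *ΔSCC4* replicate 1, 0.106 without replicate 2 and 0.0835 without replicate 3. In the double knockout *ACVR1* was at 14.2, 15.98 and 16.5 CPM, all below the *ΔSCC4* samples, and it fell by 0.62 ± 0.14 on the log2 scale against *ΔSCC4* (edgeR adjusted p = 0.00271). It was the 1 gene of the 8 that passed there, where 27.3% of all genes were called. Clone 3.3 at 20.1, 20.9 and 16.02 CPM and clone 1.14 at 21.8, 19.8 and 19.9 CPM did not pass against their controls (edgeR adjusted p = 0.653 and 0.119), although *ACVR1* has the start site closest to that of *ACVR1C* among the tested genes.

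*ACVR1B*, the main activin type I receptor (ALK4, chr12:52345483-52390862, plus strand), kept group means between 53.0 ± 2.40 CPM in clone 3.3 and 68.0 ± 6.38 CPM in *ΔSCC4*. It passed in no comparison fitted on its own groups with all samples. Its closest value was −0.34 ± 0.13 on the log2 scale in the double knockout against *ΔSCC4* (edgeR adjusted p = 0.0549), which became 0.0173 without *ΔSCC4* replicate 3. With 1 fit over all 18 samples this value was −0.335 ± 0.087 and passed (edgeR adjusted p = 0.00745). *BMPR1A*, the BMP type I receptor ALK3 (chr10:88516353-88692582, plus strand), lies 235 kb from the disrupted *WAPL* gene. Its level was 46.4, 64.4 and 73.4 CPM in control A and 69.8, 72.3 and 55.6 CPM in clone 3.3, and 63.8, 48.0 and 63.1 CPM in control B and 66.8, 63.2 and 63.4 CPM in clone 1.14. The groups overlapped in both cases, with log2 fold changes of 0.09 ± 0.17 and 0.14 ± 0.11 (edgeR adjusted p = 0.881 and 0.371).

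Among the type II receptors, *ACVR2A*, an activin and BMP receptor on chr2:148602086-148688395 (plus strand), was lower in *ΔSCC4* cells. It was at 23.9, 37.1 and 38.6 CPM in control A and at 12.1, 14.2 and 17.1 CPM in *ΔSCC4*, with no overlap. It fell by 1.21 ± 0.21 on the log2 scale, or 2.31-fold (edgeR adjusted p = 0.00402), and it passed in each of the 6 fits that left out 1 sample. *ACVR1* and *ACVR2A* were the 2 of 8 genes that passed in *ΔSCC4*, where 9.49% of all genes were called. In the double knockout *ACVR2A* was at 17.2, 21.5 and 15.8 CPM, again below all control A samples, and fell by 0.87 ± 0.19 (edgeR adjusted p = 0.0176). It was the 1 gene of 8 there, where 7.95% of genes were called. That call was lost without control A replicate 2 (adjusted p = 0.0931), without double knockout replicate 1 (0.11) and without double knockout replicate 3 (0.0553).

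In clone 3.3, *ACVR2A* was at 23.4, 25.3 and 19.3 CPM and did not pass, with a log2 fold change of −0.56 ± 0.18 (edgeR adjusted p = 0.0825). It passed without control A replicate 1, at −0.75 ± 0.15 (edgeR adjusted p = 0.00143). With no filter on low counts it also passed, at −0.558 ± 0.176 (edgeR adjusted p = 0.0444). With the filter and all samples, none of the 8 genes passed in clone 3.3 by edgeR, and none passed by DESeq2. Of the 8, 1 had an unadjusted p under 0.05, and 8.07% of all genes were called. The double knockout differed from clone 3.3 in *ACVR2A* by −0.32 ± 0.15 (edgeR adjusted p = 0.208). None of the 8 passed in that comparison by edgeR or by DESeq2, 2 had an unadjusted p under 0.05, and 10.6% of all genes were called. With 1 fit over all 18 samples *BMP2* passed there, at 0.384 ± 0.11 (edgeR adjusted p = 0.0277). In clone 1.14, *ACVR2A* was at 24.5, 23.3 and 25.7 CPM beside 24.8, 19.2 and 30.2 CPM in control B, and the groups overlapped. Control B against control A, a comparison of unedited cells, also gave none of the 8 by either tool, 1 at an unadjusted p under 0.05, and 0.64% of all genes. These values are from the fit of the 2 controls alone, and 1 fit over all 18 samples called *BMP2*, as given above.

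*ACVR2B*, a second activin type II receptor (chr3:38495381-38534633, plus strand), spread widely between samples of control A, at 39.6, 60.1 and 89.3 CPM, and of *ΔSCC4*, at 24.6, 30.0 and 49.8 CPM. Deviations of samples with the same number correlated at 0.675, 0.115 and 0.615, and the labels do not say whether these samples belong together. Between control A and clone 3.3 these correlations were −0.515, −0.001 and −0.487. The groups overlapped, yet the samples numbered 1 were the lowest and those numbered 3 the highest in both. The log2 fold change was −0.87 ± 0.31 (edgeR adjusted p = 0.12). Blocking on the replicate number gave −0.855 ± 0.07 (edgeR adjusted p = 7.32e-06), so 3 of the 8 genes passed in *ΔSCC4* in the blocked fit, where 5754 of 12503 tested genes (46%) were called. The call also appeared without control A replicate 1 (adjusted p = 0.00336) and without *ΔSCC4* replicate 3 (adjusted p = 0.00905), with no filter on low counts (0.036) and with 1 fit over all 18 samples (0.0225), while the log2 fold change was −0.53 without control A replicate 3. Without control A replicate 1, *ACVR2B* also passed in clone 3.3, at −0.63 ± 0.17 (edgeR adjusted p = 0.0156), and in the double knockout, at −0.57 ± 0.16 (edgeR adjusted p = 0.0187), where with all samples it did not (edgeR adjusted p = 0.433 and 0.585). Without control A replicate 3 these values were −0.05 ± 0.19 and −0.01 ± 0.19. In the double knockout against *ΔSCC4*, *ACVR2B* was higher by 0.507 ± 0.205 and did not pass (edgeR adjusted p = 0.0755). It passed there with no filter (0.0137), with the replicate block (0.0414), and without *ΔSCC4* replicate 3 (4.96e-07) or double knockout replicate 3 (0.0475).

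*BMPR2*, the BMP type II receptor (chr2:203241050-203432474, plus strand), showed the same kind of spread, at 42.3, 62.7 and 99.4 CPM in control A. Clone 1.14 had its highest group mean, 103.3 ± 7.51 CPM, with samples at 108.6, 94.7 and 106.6 CPM above the 74.2, 58.1 and 94.3 CPM of control B. The log2 fold change of 0.45 ± 0.16 did not pass (edgeR adjusted p = 0.0922), but it passed without control B replicate 3, at 0.63 ± 0.11 (edgeR adjusted p = 0.0068). It also passed with the replicate block, at 0.469 ± 0.103 (edgeR adjusted p = 0.0266), in a fit that called 24% of all genes. In *ΔSCC4* the log2 fold change was −0.01 ± 0.29, and 0.37 ± 0.22 without control A replicate 3. The plot of fold changes sets the 10 genes side by side.

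**Figure D2:**
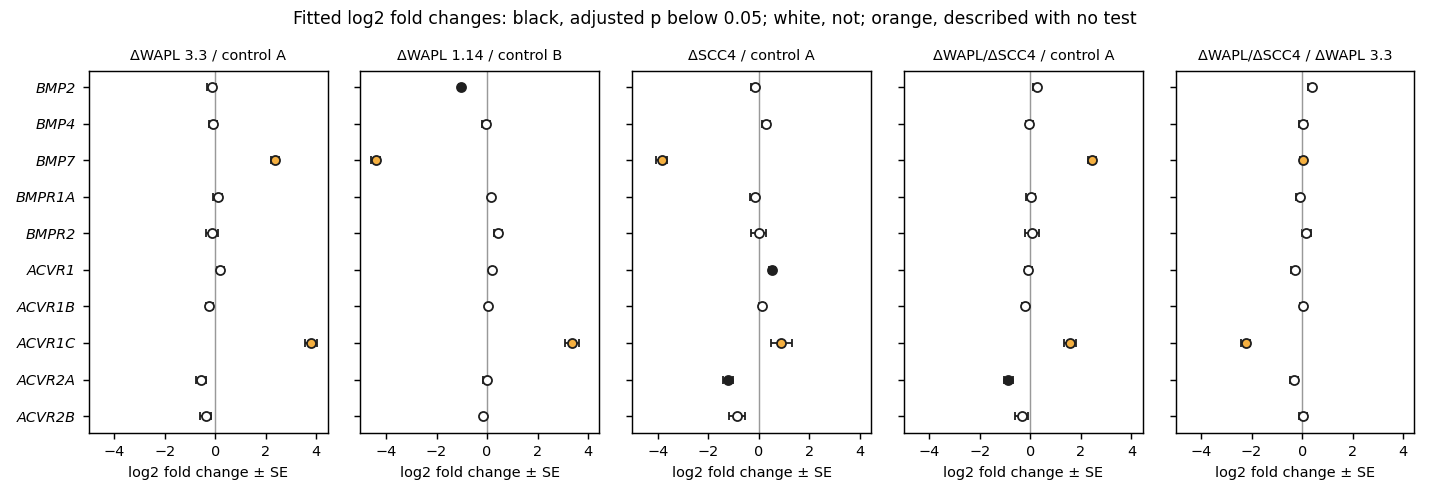
Fitted log2 fold changes ± SE (horizontal axes) of the 10 genes (vertical axis) in 5 comparisons, with black points for an adjusted p below 0.05, white points for no call, and orange points for *BMP7* and *ACVR1C*, which have no test. *BMP7* lies on opposite sides of 0 in the 2 *ΔWAPL* clones, *ACVR1C* lies on the right in both, and the other 8 genes lie between −1.21 and 0.53.

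The other genes of the superfamily were followed with lists of ligands, receptors, antagonists, SMADs and targets. Of 87 such genes in the tables, 57 were tested in at least 1 comparison and 30 in none, and no group mean of the latter passed 0.71 CPM. The lists were chosen with results of these data known. In clone 3.3, 9 of 53 tested genes passed (8.07% of all genes), 5 higher and 4 lower, with a median log2 fold change of 0.05 (−0.0006 over all genes). In clone 1.14, 20 of 55 passed (20.1% of all genes), 9 higher and 11 lower, with a median of −0.002 (0.0015 over all genes). In *ΔSCC4*, 8 of 54 passed (9.49% of all genes), 4 higher and 4 lower, with a median of −0.06. Blocking on the replicate number, 31 passed, in a fit that called 46% of all genes. In the double knockout, 6 of 54 passed against control A (7.95% of all genes), 5 higher and 1 lower, and 10 of 54 against clone 3.3 (10.6% of all genes), 5 in each direction. Against *ΔSCC4* the double knockout had 22 of 55 (27.3% of all genes), 11 in each direction. Between the 2 controls none of 54 passed by edgeR or DESeq2, and 5 had an unadjusted p under 0.05.

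Among other ligands, *TGFB2*, a TGF-β isoform, was higher in both *ΔWAPL* clones. It was at 5.8, 9.0 and 8.1 CPM in control A and at 16.7, 17.0 and 13.9 CPM in clone 3.3, a log2 fold change of 1.03 ± 0.18 (edgeR adjusted p = 0.00138). In clone 1.14 it rose from 6.70, 5.98 and 6.58 to 11.5, 10.3 and 12.1 CPM, or 0.81 ± 0.10 (edgeR adjusted p = 0.00135). The double knockout at 8.36, 8.73 and 6.73 CPM was lower than clone 3.3 and overlapped control A. *BMP6*, a BMP related to *BMP7*, was at 0.91, 0.74 and 1.25 CPM in control A and at 3.47, 4.73 and 3.68 CPM in the double knockout, a log2 fold change of 2.01 ± 0.24 (edgeR adjusted p = 0.000396). The parent clone 3.3, at 2.14, 2.55 and 2.19 CPM, was also called higher than control A. That call was lost without control A replicate 2 (edgeR adjusted p = 0.0628). The double knockout was called higher than clone 3.3, which was lost with DESeq2 (adjusted p = 0.054) and without double knockout replicate 2 (edgeR adjusted p = 0.0586). *GDF3*, a ligand of early embryos and stem cells, was at 7.09, 6.72 and 6.64 CPM in *ΔSCC4* against 1.37, 0.92 and 0.89 CPM in control A (log2 fold change 2.67 ± 0.22, edgeR adjusted p = 2.92e-05), and at 0.85, 1.11 and 0.57 CPM in the double knockout. *TGFB3* also rose in *ΔSCC4*, by 0.82 ± 0.16 (edgeR adjusted p = 0.0092). *INHBB*, an activin subunit, fell by 0.98 ± 0.18 in clone 3.3 (edgeR adjusted p = 0.00231).

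Among the antagonists, *CHRDL1*, which encodes a chordin-like protein, was at 86.0, 111.4 and 114.7 CPM in control A and at 47.2, 52.4 and 64.6 CPM in *ΔSCC4*, with no overlap. It fell by 0.94 ± 0.17 on the log2 scale (edgeR adjusted p = 0.00475). The double knockout, at 88.4, 92.7 and 84.7 CPM, lay above all *ΔSCC4* samples. *NOG*, which encodes noggin, fell by 0.81 ± 0.17 in clone 1.14 (edgeR adjusted p = 0.0153), a call that was lost without control B replicate 1 (0.0589), clone 1.14 replicate 2 (0.0586) or clone 1.14 replicate 3 (0.0682).

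Among co-receptors, *TDGF1*, the nodal co-receptor Cripto, fell by 1.95 ± 0.27 in *ΔSCC4* (edgeR adjusted p = 0.00104), where it was at 0.85, 0.51 and 0.69 CPM against 2.67, 3.14 and 2.32 CPM in control A. The double knockout was at 3.13, 2.64 and 2.66 CPM, in the range of control A. *TDGF1* was also called lower in clone 3.3, at 1.59, 1.2 and 1.46 CPM, and the double knockout was called higher than that clone. In clone 1.14 it was called lower, at 2.33, 2.37 and 2.05 CPM against 4.24, 4.03 and 3.21 CPM in control B. The clone 3.3 call was lost with DESeq2 (adjusted p = 0.103), and both clone calls were lost in some fits without 1 sample. Among the SMADs, the inhibitory *SMAD6* was lower in clone 1.14, at 2.60, 3.56 and 3.08 CPM against 7.79, 6.59 and 6.81 CPM in control B (log2 fold change −1.20 ± 0.14, edgeR adjusted p = 0.00106). All 14 SMADs and regulators listed were tested, and in clone 3.3 1 of them was called, *SMAD3*, at −0.53 ± 0.14 (edgeR adjusted p = 0.0231). That call was lost without control A replicate 2 (0.0854) and without clone 3.3 replicate 1 (0.0771), replicate 2 (0.1) or replicate 3 (0.082).

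The BMP target genes were set beside *BMP7*. *ID1* was at 23.3, 17.9 and 15.2 CPM in control A, at 26.7, 24.0 and 29.8 CPM in clone 3.3 and at 40.6, 34.2 and 42.7 CPM in the double knockout. It was at 19.3, 15.2 and 17.4 CPM in *ΔSCC4*, at 21.3, 20.3 and 17.5 CPM in control B and at 12.03, 14.1 and 15.0 CPM in clone 1.14. The double knockout lay above all other groups and clone 1.14 lay below control B, whereas *ΔSCC4*, where *BMP7* was also near 1 CPM, overlapped control A. *ID1* rose by 1.05 ± 0.17 in the double knockout (edgeR adjusted p = 0.00299) and fell by 0.53 ± 0.12 in clone 1.14 (edgeR adjusted p = 0.0185). The latter was lost without control B replicate 1 (0.079), clone 1.14 replicate 1 (0.0662) or clone 1.14 replicate 2 (0.0617). In clone 3.3 *ID1* did not pass with all samples and rose by 0.69 without control A replicate 1 (edgeR adjusted p = 0.00676).

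*ID2* followed another order, at 30.8, 32.1 and 30.0 CPM in *ΔSCC4* against 13.4, 13.8 and 12.5 CPM in control A (log2 fold change 1.22 ± 0.14, edgeR adjusted p = 0.000225). The double knockout was at 13.4, 14.9 and 17.1 CPM, so *ID2* was high where SCC4 alone was lost. In clone 1.14 *ID2* fell by 0.53 ± 0.14 (edgeR adjusted p = 0.0327), which was lost without control B replicate 1 (0.108) and without clone 1.14 replicate 1 (0.0749), 2 (0.108) or 3 (0.103). *MSX1*, a homeobox target, rose by 0.59 ± 0.09 in clone 1.14 (edgeR adjusted p = 0.00446) and by 0.82 ± 0.14 in the double knockout (edgeR adjusted p = 0.00337). It also rose by 0.62 ± 0.16 in clone 3.3 (edgeR adjusted p = 0.0272), which was lost without control A replicate 2 (0.0991) or 3 (0.0794) and without clone 3.3 replicate 2 (0.0526) or 3 (0.0986). *HEY1* fell by 0.83 ± 0.16 in *ΔSCC4* (edgeR adjusted p = 0.00691). *ID3* rose by 0.59 ± 0.15 in the double knockout (edgeR adjusted p = 0.0334), which was lost without control A replicate 2 (0.195) or 3 (0.0571) and without double knockout replicate 1 (0.179) or 3 (0.102). In *ΔSCC4* *ID3* did not pass (0.41 ± 0.17, edgeR adjusted p = 0.164) and passed with the replicate block (edgeR adjusted p = 0.000264) or without control A replicate 1 (0.0235), and *ID4* was counted at 0 to 2 reads per sample. *EOMES*, a target of activin and nodal, was at 0.98, 0.99 and 1.01 CPM in control A and at 3.54, 3.11 and 3.52 CPM in clone 3.3 (log2 fold change 1.75 ± 0.23, edgeR adjusted p = 9.4e-05). In clone 1.14 it rose by 0.72 ± 0.16 (edgeR adjusted p = 0.0201), which was lost without clone 1.14 replicate 1 (0.0805) or replicate 3 (0.0675) and with DESeq2 (0.0558). Of the 7 tested BMP targets, 1 was higher and none lower in clone 3.3, 1 higher and 3 lower in clone 1.14, 1 and 1 in *ΔSCC4*, and 3 and none in the double knockout, in comparisons that called 8.07, 20.1, 9.49 and 7.95% of all genes.

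**Figure D3:**
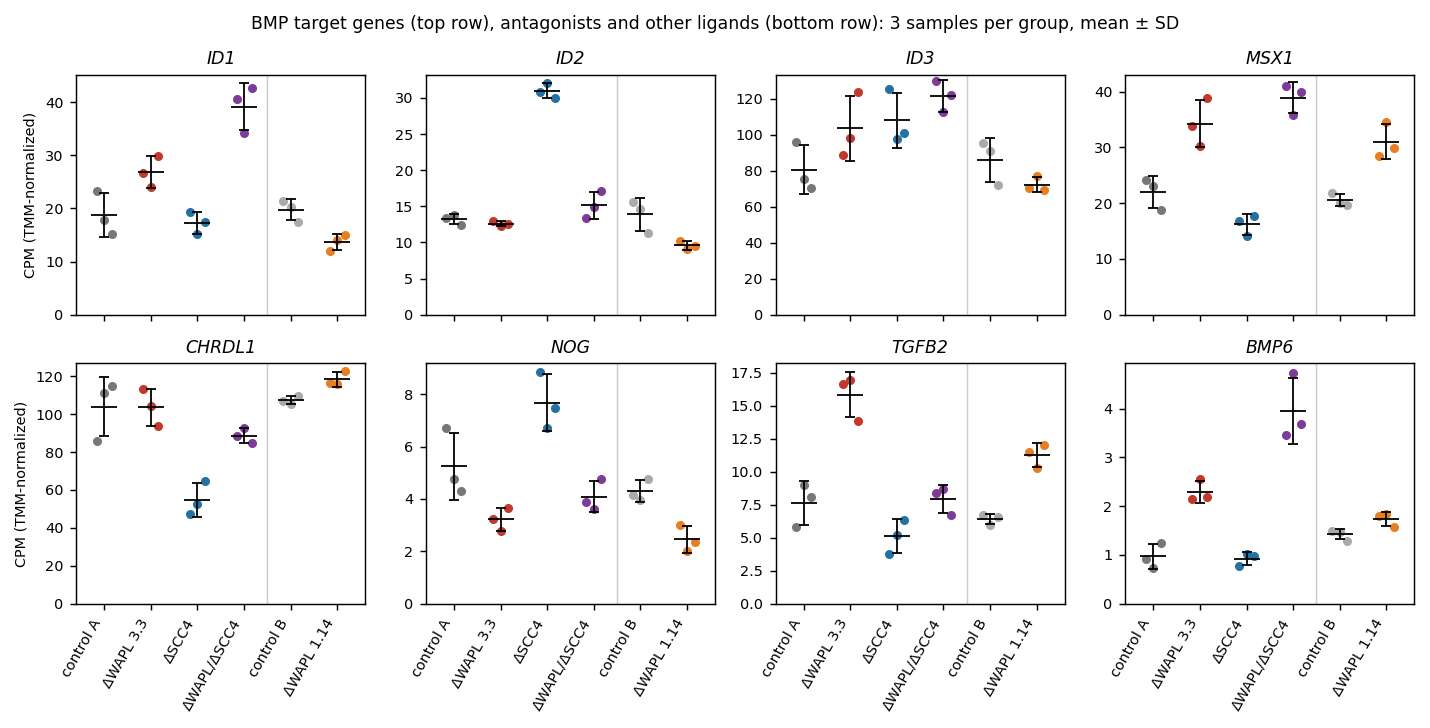
Normalized CPM (vertical axes, from 0) of 4 BMP target genes (top row) and of 2 antagonists and 2 other ligands (bottom row) in each of 18 samples, with lines and bars for mean ± SD of 3 samples. *ID1* is highest in the double knockout, *ID2* in *ΔSCC4*, and *TGFB2* in the 2 *ΔWAPL* clones, and *CHRDL1* is lowest in *ΔSCC4*.

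The genes with patterns most like *BMP7* over the 18 samples, by Pearson correlation of log2 CPM among 11563 genes, were *STAC* (r = 0.989), *FUT11* (0.973) and *TMEM35A* (0.972). *STAC* averaged 4.38 CPM in control A, 15.2 in clone 3.3, 1.29 in *ΔSCC4*, 17.8 in the double knockout, 5.38 in control B and 1.07 in clone 1.14. For *ACVR1C* they were *TWIST1* (r = 0.96), *ITGA4* (0.954) and *LRRC7* (0.947). *ITGA4*, an integrin subunit, averaged 44.3 CPM in control A, 121.7 in clone 3.3, 44.4 in *ΔSCC4*, 66.0 in the double knockout, 44.2 in control B and 124.8 in clone 1.14. The points fall into 6 groups that share clones and controls, so these values describe a likeness and carry no test.

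Genes within 1 Mb of the start sites of *BMP7* and *ACVR1C* were examined because loops can join neighboring genes, a window chosen after the data were seen. Around *ACVR1C*, 4 of 7 genes were tested. *ERMN* was at 57.4, 58.6 and 54.6 CPM in control A and at 116.5, 118.8 and 109.8 CPM in clone 3.3, and rose by 1.00 ± 0.14 (edgeR adjusted p = 0.000167). In clone 1.14 it rose from 29.5, 19.5 and 39.1 CPM in control B to 79.9, 72.3 and 75.3 CPM, by 1.36 ± 0.21 (edgeR adjusted p = 0.00455). Control B lay below control A, with a log2 fold change of −0.97 ± 0.21 that did not pass (edgeR adjusted p = 0.0943). In *ΔSCC4* *ERMN* rose by 1.11 ± 0.14 (edgeR adjusted p = 0.000493). It did not pass in the double knockout (edgeR adjusted p = 0.0791) but passed there without control A replicate 1 (0.0364). *GALNT5* was at 0.98, 1.17 and 1.55 CPM in control A, 7.62, 4.67 and 4.92 CPM in clone 3.3, 4.03, 6.72 and 6.77 CPM in *ΔSCC4* and 22.1, 30.4 and 20.2 CPM in the double knockout. It rose in all 3 (log2 fold changes 2.20 ± 0.26, 2.21 ± 0.27 and 4.28 ± 0.23, edgeR adjusted p = 3.36e-05, 0.000493 and 1.99e-06). In clone 1.14 it was at 0.90, 0.59 and 0.48 CPM against 1.23, 1.28 and 1.74 CPM in control B, and fell by 1.10 ± 0.28 (edgeR adjusted p = 0.0341), a call that was lost with DESeq2 (0.111), without control B replicate 1 (0.0756) or 3 (0.0569) and without clone 1.14 replicate 2 (0.114) or 3 (0.117). The 2 clones differed for *GALNT5* by 3.32 ± 0.43 (edgeR adjusted p = 0.000486).

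Around *BMP7*, 19 genes lay in the window and 8 were tested in clone 3.3, of which *TFAP2C* passed, at −0.53 ± 0.14 (edgeR adjusted p = 0.0282), a call that was lost without control A replicate 2 (0.14) or clone 3.3 replicate 1 (0.124) or 2 (0.137). In clone 1.14, 9 were tested, and *FAM210B* rose by 0.47 ± 0.05 (edgeR adjusted p = 0.000876) while *TFAP2C* fell by 0.38 ± 0.07 (edgeR adjusted p = 0.00945). The *FAM210B* call was lost with 1 fit over all 18 samples (edgeR adjusted p = 0.103). Of all tested genes, 8.07% were called in clone 3.3, 20.1% in clone 1.14 and 9.49% in *ΔSCC4*. *CTCFL*, a testis relative of CTCF, was counted at 20, 19 and 31 reads in control B. It was counted at 1, 1 and 0 reads in clone 1.14 (edgeR adjusted p = 0.00039) and at 3, 6 and 7 reads in control A. *CTCFL* was also called higher in control B than in control A, by 2.12 ± 0.32 (edgeR adjusted p = 0.0246). That call between unedited cells was lost in some fits without 1 sample. The difference between the effects of the 2 clones, 3.85 ± 0.98, did not pass (edgeR adjusted p = 0.0605). In *ΔSCC4*, *PMEPA1*, a regulator of TGF-β signaling, rose by 0.86 ± 0.15 (edgeR adjusted p = 0.00418).

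**Figure D4:**
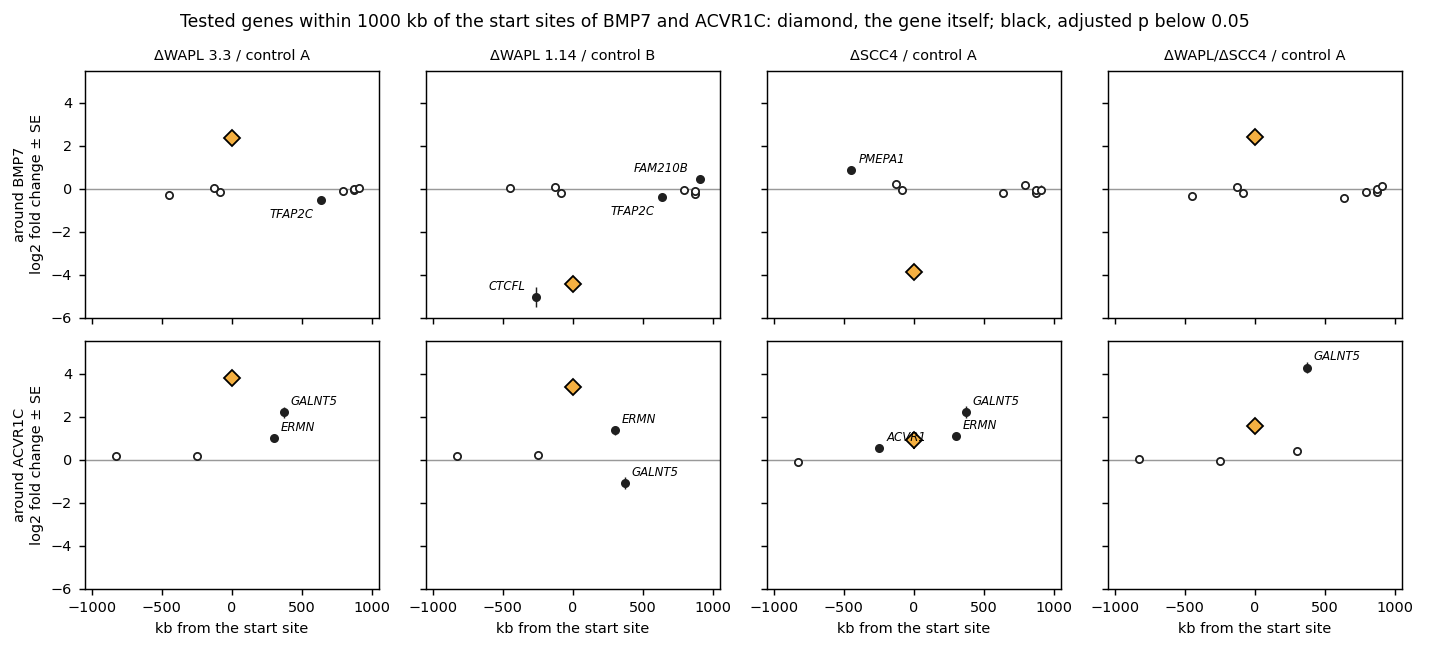
Log2 fold changes ± SE (vertical axes) of tested genes against their distance in kb from the start site of *BMP7* (top row) or *ACVR1C* (bottom row), with diamonds for these genes themselves and black points for an adjusted p below 0.05. *ERMN* and *GALNT5* lie 301.2 and 371.2 kb from the start of *ACVR1C*, and *GALNT5* reaches 4.28 in the double knockout.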

How the data were processed

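Strand-specific poly(A) RNA-seq libraries of 18 HAP1 samples were analysed from the tables of raw read counts per Ensembl gene that the authors deposited, 1 table per sample. The authors counted reads with HTSeq after alignment to hg19. The submitters' processing notes name TopHat2 2.0.9 and DESeq2 1.10.1, and the annotation is not given in the sources used here. Rows that name no gene held 20.34 to 22.62% of all reads of a sample and were left out. Between 10007646 and 20711127 counts on genes remained, which sets the precision of low genes. Symbols were matched for 19637 of 20329 identifiers (96.6%), with positions from GENCODE v44lift37.

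Each comparison was fitted on its own groups with edgeR 4.0.16 in R 4.3.3 (filterByExpr, TMM, quasi-likelihood F test) and adjusted over all tested genes by Benjamini-Hochberg at 0.05. Standard errors (SE) come from the log2 fold change over the root of its F statistic. Log2 CPM used a prior count of 2. Scripts were tested on simulated data. For *ΔSCC4* and control A, the deviations of samples with the same number correlated at 0.675, 0.115 and 0.615. The labels do not say whether such samples belong together. In this comparison the blocked value stands beside a described pathway result where it changed a call. Pathway genes are named where their average log2 CPM reached 1 and they were among the calls with the largest changes in each direction of a comparison, and *ID1* to *ID4* always, except that 1 gene is not reported here. *SMAD3*, *INHBE*, *TDGF1* in *ΔSCC4*, *MSX1* in clone 1.14 and all neighbors were named after their values were seen. Alternatives were DESeq2 1.42.0, its size factors in edgeR, no filter on low counts, a minimum of 10 counts per sample, 1 fit over all 18 samples, the replicate block and leaving out each sample. The members and lists were chosen with earlier results of these data known.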

Additional observations from a re-analysis of the deposited data

Results flagged for a closer look

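*ACVR1C* in control B replicate 3, at 1.97 CPM, stood apart from the other 5 controls, with a gap of 0.669 of the range of log2 CPM over the 6 controls. It was the 1 of 10 genes examined with such a sample, and chance gives about 1 in 20 for each gene examined. *ACVR1C* was singled out with its levels known, so this flag is a description. The effects of the 2 *ΔWAPL* clones, each against its own control, differed in the test of the difference for *BMP2* by 0.889 on the log2 scale (edgeR adjusted p = 0.00878), lower in 3 of 3 samples of clone 1.14 than in any control B sample. They differed for *ID1* by 1.042 (edgeR adjusted p = 0.0198), for *INHBE*, an activin subunit gene counted at 3 to 25 reads in these groups, by 2.68 (edgeR adjusted p = 0.0198), and for *EOMES* by 1.044 (edgeR adjusted p = 0.0392). *EOMES* rose in both clones and *ID1* passed in clone 1.14 alone of the 2. The differences for *ID1* and *EOMES* did not pass with the replicate number as a block (edgeR adjusted p = 0.103 and 0.172). That for *EOMES* was also lost with DESeq2 (adjusted p = 0.163) and with no filter (0.0594), and over 12 fits without 1 sample it passed in 1, against 7 for *ID1* and 6 for *INHBE*.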

How the results depend on the processing

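Counts are of the 8 tested genes and of the superfamily lists, and the larger shifts are listed. The *ACVR2B* call that other settings added in *ΔSCC4* is given above. The 8 genes gave 1 call instead of 0 in clone 3.3 with no filter, 2 instead of 1 in clone 1.14 with the replicate block, 1 instead of 0 in the double knockout against clone 3.3 with 1 fit over all samples, 2, 3 and 2 instead of 1 in the double knockout against *ΔSCC4* with no filter, 1 fit and the replicate block, 1 instead of 0 between controls with 1 fit, and 0 instead of 1 for the clone difference with the block. The lists gave 16 instead of 9 in clone 3.3 with 1 fit, 5, 19 and 31 instead of 8 in *ΔSCC4* with at least 10 counts, 1 fit and the replicate block, 12 instead of 6 in the double knockout with 1 fit, 6 instead of 10 against clone 3.3 with DESeq2, 1, 2 and 1 instead of 0 between controls with no filter, 1 fit and the block, and 7 and 1 instead of 3 for the clone difference with 1 fit and the block. Over fits without 1 sample, the 8 genes gave 0 to 2 calls in clone 3.3, 1 to 2 in clone 1.14, 1 to 3 in *ΔSCC4*, 0 to 2 in the double knockout against control A, 0 to 0 against clone 3.3, 1 to 5 against *ΔSCC4*, 0 to 0 between controls and 1 to 1 for the clone difference, and the lists 4 to 12, 8 to 24, 7 to 16, 3 to 9, 5 to 13, 19 to 24, 0 to 1 and 0 to 4 in the same order. No called value reversed. The cause of these shifts was not tested. The labels give the samples only a number. In each comparison other than *ΔSCC4* against control A, at least 1 pair with the same number had a correlation of at most 0.1. *ACVR1C* at 10 to 35 reads in controls and *BMP7* at 8 to 16 reads where it was low are limited by depth.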
